A study of Mus musculus with 12 samples.

Results

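Wnt ligands, their Frizzled receptors and the R-spondins that amplify Wnt signals were followed in colon adenomas and adjacent normal colon. The genes were taken by symbol among protein-coding genes: the Wnt genes, Fzd genes and Rspo1 to Rspo4, with the co-receptors Lrp5 and Lrp6, the alternative receptors Ror1, Ror2 and Ryk, the R-spondin receptors Lgr4 and Lgr6, and Porcn and Wls, which act in ligand secretion. This gave 42 of 52636 genes: 19 ligands, 10 Frizzled receptors, 4 R-spondins, 2 R-spondin receptors, 3 alternative receptors, 2 co-receptors and 2 secretion genes. RNA was sequenced from colon tissue of C57BL/6 mice, and all groups carried ApcMin/+, which truncates Apc, a tumor suppressor. One genotype was Cul4bWT (WT) and the other Cul4bΔIEC (KO), in which the ubiquitin ligase scaffold gene Cul4b is deleted in intestinal epithelial cells, so that cells of other types keep it. Each genotype had adenoma (T) and adjacent normal colon (N) at 3, 4 and 5 months of age, with 1 library for each genotype, tissue and age, or 12 libraries in 4 groups of 3. The titles mark T and N, which were read as adenoma and adjacent normal colon from the design text. Nothing in the labels says whether libraries came from separate mice or how many mice a library holds, so a p-value reflects how much these libraries vary and no more.

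Wnt proteins are lipid-modified by Porcn, carried to the cell surface by Wls, and bind a Frizzled receptor together with Lrp5 or Lrp6. This stops the destruction complex, of which Apc is a part, from degrading beta-catenin, which then activates target genes with TCF and LEF factors. R-spondins bind Lgr4, Lgr5 or Lgr6 and keep the ligases Rnf43 and Znrf3 from removing Frizzled receptors, and in the normal colon this system maintains stem cells at the crypt base. Some ligands, such as Wnt5a, act mainly through Ror2 or Ryk and without beta-catenin.

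The promoters of 3 of these genes are shown because of how the genes sit or moved: Wnt6 lies next to the other ligand that rose most, and Lgr6 and Lgr4 are receptors of the same ligands, and Lgr6 rose while Lgr4 fell in FPKM. Each sequence is the 250 bases before the start of transcription in RefSeq's table for GRCm38.p6 (the mm10 assembly), written 5′ to 3′ on the gene's strand, with CG dinucleotides in capitals. The window of Wnt6 is chr1:74771642-74771891 on the plus strand, that of Lgr6 is chr1:135105277-135105526 on the minus strand, and that of Lgr4 is chr2:109917397-109917646 on the plus strand.
Wnt6: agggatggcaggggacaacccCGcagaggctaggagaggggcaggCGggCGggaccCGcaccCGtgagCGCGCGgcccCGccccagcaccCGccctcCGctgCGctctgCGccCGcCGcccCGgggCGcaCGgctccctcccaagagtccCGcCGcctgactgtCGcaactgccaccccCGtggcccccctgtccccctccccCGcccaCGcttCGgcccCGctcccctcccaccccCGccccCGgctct
Lgr6: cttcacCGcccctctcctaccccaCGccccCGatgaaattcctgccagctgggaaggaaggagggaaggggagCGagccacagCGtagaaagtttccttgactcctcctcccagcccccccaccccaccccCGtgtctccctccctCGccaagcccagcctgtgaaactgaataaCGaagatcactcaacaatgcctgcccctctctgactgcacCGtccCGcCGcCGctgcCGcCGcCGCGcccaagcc
Lgr4: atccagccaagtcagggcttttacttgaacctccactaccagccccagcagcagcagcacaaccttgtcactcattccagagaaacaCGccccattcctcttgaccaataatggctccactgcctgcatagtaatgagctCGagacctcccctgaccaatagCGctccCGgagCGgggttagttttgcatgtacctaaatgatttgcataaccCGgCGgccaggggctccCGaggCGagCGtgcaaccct
The Wnt6 window held 28 CG dinucleotides and 79.6% G or C, the Lgr6 window 16 and 65.2%, and the Lgr4 window 10 and 55.6%. The median over 32851 promoter windows of the same length was 6 CG dinucleotides, with quartiles of 2 and 16. Of the 42 genes, 29 had a promoter in the table, with 32 windows. The TCF and LEF motifs CTTTGAT and CTTTGAA, searched on both strands, were found in 2 of these windows (6.25%), against 7.48% of all windows: 71 bases before a start of Wnt5b and 51 bases before a start of Wnt11. None of the 3 windows printed here held either motif.

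Between 18263611 and 25321931 reads per library fell in genes (median 21183824). Values are FPKM, reads per kilobase after scaling by a total for each library. This total did not follow the reads in genes alone. It was 0.720 to 0.915 times those reads in N libraries and 1.13 to 1.30 times in T libraries. In a 2-kilobase gene, 3 reads correspond to between 0.052 and 0.10 FPKM. Levels of 3 and 4 months and those of 5 months were deposited in separate tables, which may be scaled apart. Cul4b (mm10 chromosome X, 38533274 to 38576196), the targeted gene, was at 13.7, 15.0 and 11.5 FPKM in WT N and at 2.99, 1.38 and 0.920 FPKM in KO N at 3, 4 and 5 months. In T it was at 12.2, 9.92 and 7.88 FPKM in WT and at 2.27, 1.53 and 1.46 FPKM in KO, so every KO library lay below every WT library. KO minus WT was -2.45 in N (limma adjusted p = 0.0036) and -1.99 in T (0.021). The KO N library of 3 months stood apart: its smooth muscle markers summed to 629.6 FPKM, against 30.8 to 117.6 FPKM in the other N libraries. Both N libraries of 3 months also had high Paneth and deep crypt secretory markers, with sums of 4947 FPKM in WT and 8728 FPKM in KO, against 19.2 to 345.1 FPKM in the other N libraries. Most of this was Ang4, at 4722 and 7742 FPKM, and the other markers of the list summed to 225.3 and 986.0 FPKM.

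The first comparison set T against N within each genotype, to ask how ligand and receptor supply differed between them. The ligand mRNA pool was larger in T and dominated by Wnt6, Wnt10a and Wnt5a, while the Frizzled pool overlapped in summed FPKM and had another composition, with less Fzd5 and more Fzd6 and Fzd10. Among the R-spondin receptors, Lgr6 rose and Lgr4 fell in FPKM, where the fall of Lgr4 did not pass once each library was divided by its FPKM sum (-0.13 in WT and -0.39 in KO). A test was possible for the 22 genes whose mean over the 12 libraries reached 0.5 FPKM; the other 20 were below this level. In WT, 7 of the 22 rose and 4 fell, where 16.3% of all 15526 genes tested rose and 19.9% fell (limma, adjusted p under 0.05). In KO, 7 rose and 3 fell, where 14.0% of all genes rose and 16.0% fell. The median difference of the 22 genes was 0.42 on the log2 scale in WT and 0.29 in KO, beside 0.01 and 0.02 for all genes tested. These counts cover only genes that passed the level, and a gene high in T alone can pass through T, so they describe the tested genes and not all 42.

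**Figure D1:**
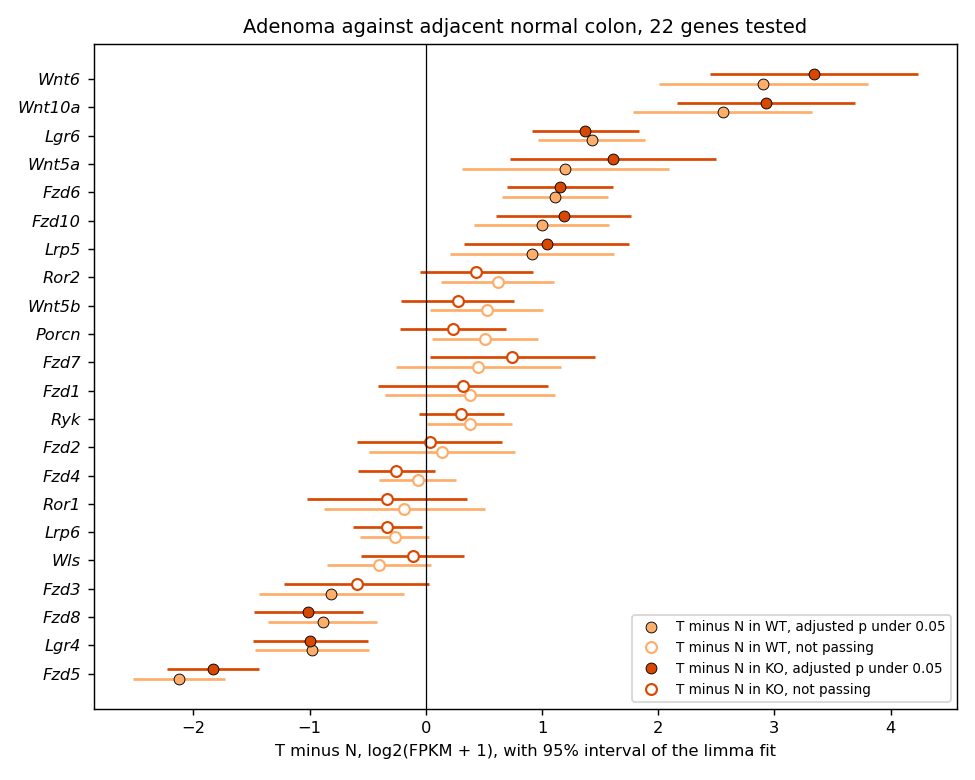
T minus N in log2(FPKM + 1) for the 22 tested genes (horizontal axis, with the 95% interval of the limma fit), in WT (light) and KO (dark). Filled points passed an adjusted p under 0.05 and open points did not. Wnt6 and Wnt10a lie farthest to the right, at 2.55 to 3.34, and Fzd5 farthest to the left, at -2.12 and -1.83.

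Wnt6 (mm10 chr1:74771892-74785322, plus strand), a ligand that acts through beta-catenin, had the largest difference of the 22 tested genes on the log2(FPKM + 1) scale; with voom on reads, Wnt10a had a larger one (4.97 against 4.19 in WT and 6.35 against 4.75 in KO). In WT it was at 1.51, 0.521 and 0.274 FPKM in N and at 7.93, 17.9 and 11.2 FPKM in T at 3, 4 and 5 months. In KO it was at 0.612, 0.565 and 0.320 FPKM in N and at 7.08, 22.9 and 16.9 FPKM in T. Every T library lay above every N library, and the lowest T values of each genotype were those of 3 months. Wnt6 rose in WT by 2.91 (SE 0.40, limma adjusted p = 0.00071) and by 3.34 in KO (SE 0.40, limma adjusted p = 0.00043) on the log2(FPKM + 1) scale, which understates changes of low values. It stayed past the threshold in both genotypes under all 24 other settings tried.

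Wnt10a (chr1:74791516-74804179, plus strand), another ligand that acts through beta-catenin, known from skin and tooth development, begins 6.2 kb after the end of Wnt6. Its levels in N were 0.399, 0.168 and 0.108 FPKM in WT and 0.0209, 0.274 and 0.0473 FPKM in KO at 3, 4 and 5 months. Its levels in T were 3.44, 9.34 and 6.99 FPKM in WT and 3.21, 10.7 and 11.2 FPKM in KO, all above every N library. Wnt10a rose in WT by 2.55 (SE 0.34, limma adjusted p = 0.00062) and by 2.93 in KO (SE 0.34, limma adjusted p = 0.00038), and passed under all 24 other settings as well. In reads, it had 1 to 16 in the N libraries and 173 to 753 in the T libraries, so its N level is set by few reads. Every N value was under 0.5 FPKM, so Wnt10a reached the tested level through T, which partly set its call. In the GENCODE M21 annotation the exons of Wnt6 and Wnt10a overlapped no other gene and shared no stretch of 50 bases with one.

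Wnt5a (chr14:28504750-28527448, plus strand), the typical ligand of the beta-catenin independent branch, rose less evenly. In WT it was at 1.32, 1.96 and 0.324 FPKM in N and at 5.94, 1.90 and 4.48 FPKM in T at 3, 4 and 5 months, so that at 4 months T was not above N. In KO it was at 1.85, 1.42 and 0.388 FPKM in N and at 6.20, 3.60 and 7.24 FPKM in T, higher in T at all 3 ages. Wnt5a rose in WT by 1.2 (SE 0.39, limma adjusted p = 0.040) and by 1.61 in KO (SE 0.39, limma adjusted p = 0.014). The call in WT was lost without the WT N library of 3 months (limma adjusted p = 0.126) or 5 months (0.173), the WT T library of 3 months (0.128) or 5 months (0.161), the KO T library of 3 months (0.0526), and all libraries of 3 months (0.231) or 5 months (0.224). That in KO was lost without the KO N (0.0658) or KO T (0.0656) library of 5 months, and without all libraries of 3 months (0.0712) or 5 months (0.114).

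Wnt5b, which belongs to the same subfamily as Wnt5a, was between 0.278 and 1.13 FPKM in N and between 0.604 and 1.19 FPKM in T. Its difference of 0.53 in WT (SE 0.21, limma adjusted p = 0.086) and 0.28 in KO (SE 0.21, 0.371) did not pass in the main test. In WT it passed with age fitted within each tissue (0.53, limma adjusted p = 0.0489) and with each library divided by its FPKM sum (1.29, 0.0080). The highest N value was that of the KO library of 3 months, and without this library Wnt5b passed in both genotypes (0.53 with adjusted p = 0.0240 in WT, and 0.55 with 0.0441 in KO).

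**Figure D2:**
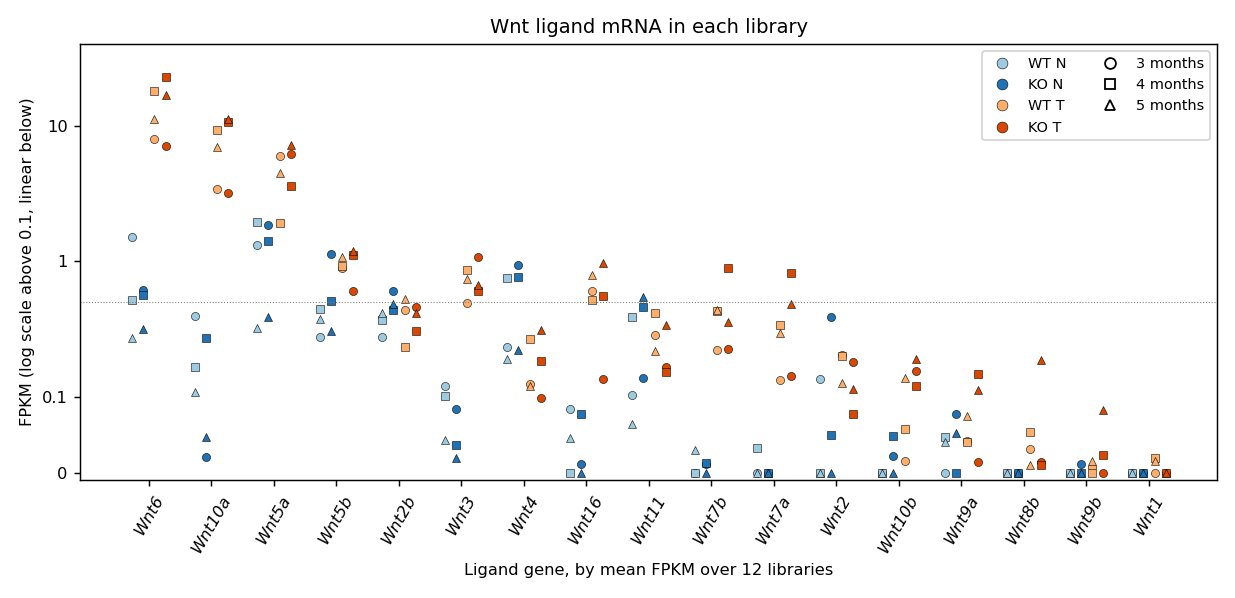
FPKM of each ligand gene with at least 1 read (vertical axis, logarithmic above 0.1 and linear below) in each of the 12 libraries, by genotype and tissue (color) and age (shape). The dotted line marks 0.5 FPKM, the mean a gene needed for the main test; Wnt6 and Wnt10a in T reach 22.9 and 11.2 FPKM.

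The other 15 ligands had means under 0.5 FPKM. Wnt3a and Wnt8a had no read in any library, and Wnt1 had at most 1. With a lower limit of 0.1 FPKM and a pseudocount of 0.1, 33 of the 42 genes could be tested: 9 rose and 4 fell in WT, where 13.4% of 21230 genes rose and 15.4% fell, and in KO 11 rose and 4 fell, where 11.4% rose and 12.6% fell. Genes that reach the lower limit through T alone had to differ, so these counts too are a description. In this fit Wnt3, Wnt7a, Wnt7b and Wnt16, each at or near 0 in N and past the limit through T, rose in both genotypes, and the sizes depend on the pseudocount. Wnt5a (1.83, adjusted p = 0.0587) and Lrp5 (1.14, 0.0543) did not pass in WT here. Wnt3, a ligand of Paneth cells that maintains intestinal crypts, was at 0.019 to 0.12 FPKM in N and at 0.492 to 1.09 FPKM in T, and rose by 2.08 in WT (limma adjusted p = 0.0033) and 2.58 in KO (0.0014). Wnt7b had 0 to 2 reads in N and 22 to 112 reads in T, and rose by 2.05 (limma adjusted p = 0.0069) and 2.29 (0.0047). Wnt7a had 0 to 2 reads in N and 10 to 74 reads in T (differences 1.64 and 2.34, adjusted p = 0.020 and 0.0046), and Wnt16 had 0 to 6 and 13 to 114 reads (2.39 and 2.13, adjusted p = 0.011 and 0.021). All 6 T libraries lay above all 6 N libraries for each of these 4 ligands, which is a description only, since reaching the limit through T largely fixed it. Wnt4 and Wnt2b, ligands of low level in these tissues, did not pass: Wnt4 was at 0.191 to 0.935 FPKM in N and 0.0982 to 0.311 FPKM in T, and Wnt2b at 0.278 to 0.602 and 0.236 to 0.531 FPKM. Wnt11, a ligand of the beta-catenin independent branch, was at 0.0646 to 0.551 FPKM in N and 0.152 to 0.413 FPKM in T, and Wnt2 at 0 to 0.389 and 0.0775 to 0.203 FPKM. Wnt10b, Wnt9a, Wnt8b and Wnt9b had at most 17 reads in any library; Wnt8b had none in N and 1 to 17 in T.

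Summed over all 19 ligands, FPKM was 1.91 to 5.89 in N (median 4.57) and 19.8 to 42.2 in T (median 30.4), with no overlap. Shares within this sum do not depend on how a library is scaled. Wnt6, Wnt10a and Wnt5a together made up 83.1% to 88.1% of the ligand sum in T and 31.5% to 72.4% in N. Wnt6 alone held 35.8% to 54.3% in T and 10.4% to 33.9% in N, the highest N share being that of the WT library of 3 months. The share of Wnt5a alone was 16.2% to 40.9% in N (median 30.0%) and 5.69% to 31.3% in T (median 17.1%). Wnt4 and Wnt2b held 5.25% to 16.4% and 6.22% to 21.6% of the sum in N, and 0.435% to 0.801% and 0.704% to 2.31% in T. Wnt11 held 2.33% to 23.0% in N, the most in the KO library of 5 months, and 0.361% to 1.39% in T.

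**Figure D3:**
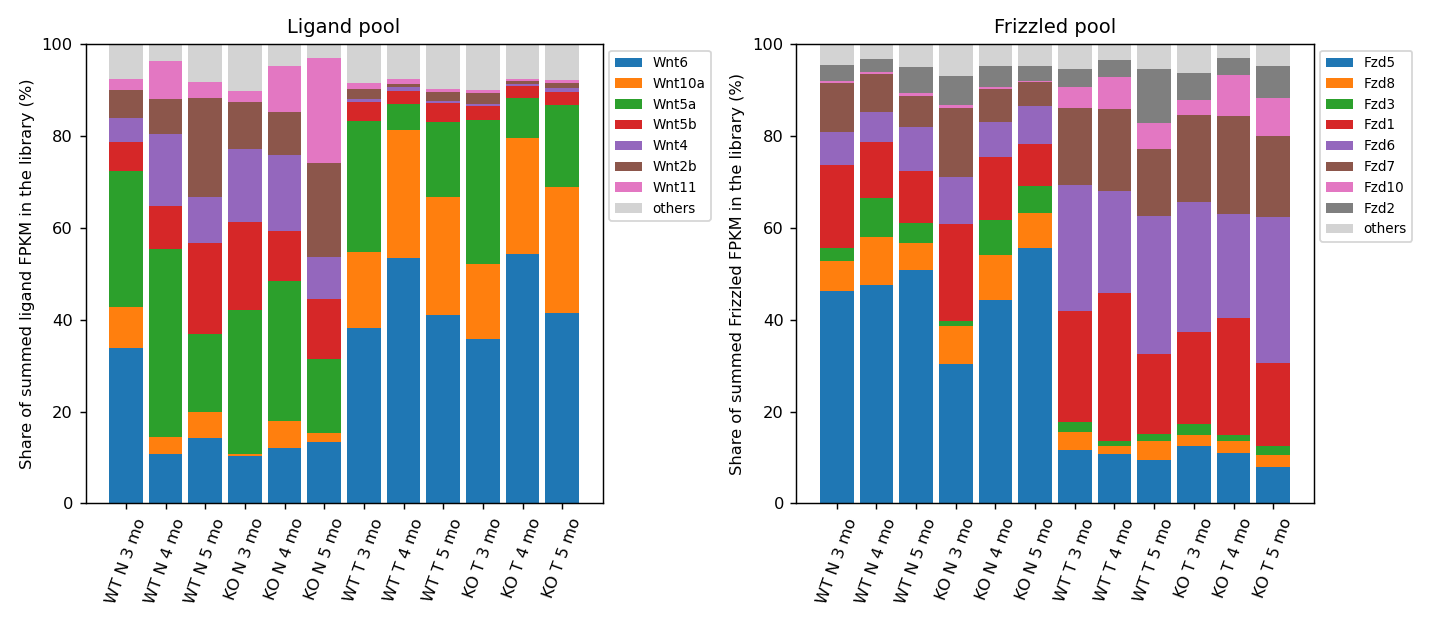
Share of each gene in the summed FPKM of the 19 ligands (left) and of the 10 Frizzled genes (right), in percent, with 1 bar per library (N on the left, T on the right of each panel). In the T bars Wnt6, Wnt10a and Wnt5a take 83.1% to 88.1% of the ligand sum, and Fzd5 takes 8.04% to 12.5% of the Frizzled sum against 30.2% to 55.5% in N.

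R-spondin mRNA was low throughout, with sums of 0.50 to 2.06 FPKM in N and 0.285 to 0.792 FPKM in T. Rspo3, the main R-spondin of the intestinal stroma, was at 0.557, 0.453 and 0.411 FPKM in WT N, 1.75, 0.237 and 0.397 FPKM in KO N, 0.273, 0.102 and 0.640 FPKM in WT T and 0.518, 0.113 and 0.314 FPKM in KO T. The groups overlapped, the KO N library of 3 months was the highest, and 13.1% of the exonic bases of Rspo3 also lie in the predicted gene Gm48159. Rspo1 was at 0.293, 0.407 and 0.151 FPKM in KO N and at 0, 0.0541 and 0.0385 FPKM in KO T. With the lower limit it fell by 1.52 in KO (limma adjusted p = 0.023), on 5 to 14 reads in N and 0 to 3 in T. Rspo1 reached the limit of 0.1 FPKM chiefly through KO N, so its fall was partly set by that limit. In WT it was at 0.0317, 0.187 and 0.0689 FPKM in N and at 0, 0.139 and 0 FPKM in T (difference -0.47, adjusted p = 0.42). Rspo2 had at most 2 reads in any library, and Rspo4 had at most 1 read in N and 2 to 11 in T.

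Of the Frizzled receptors, Fzd5 (chr1:64730558-64737751, minus strand), the receptor through which Wnt signals act on Paneth cell maturation, was the most abundant in every N library and had the largest difference of the Frizzled genes on the log2(FPKM + 1) scale. In WT it was at 13.7, 14.2 and 12.8 FPKM in N and at 1.99, 2.77 and 2.28 FPKM in T at 3, 4 and 5 months. In KO it was at 7.82, 11.1 and 14.3 FPKM in N and at 1.86, 2.83 and 2.31 FPKM in T. All T libraries lay below all N libraries, and the T values of both genotypes were close to each other. Fzd5 fell by 2.12 in WT (SE 0.18, limma adjusted p = 7.2e-05), in KO it fell by 1.83 (SE 0.18, 0.00015), and both held under all 24 other settings. Of its exonic bases, 17.8% also lie in Gm38058 on the other strand, which was at 0.0765 FPKM or less.

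Fzd6 (chr15:39006280-39038186, plus strand), a receptor known for planar cell polarity, rose. In WT it was at 2.11, 1.94 and 2.44 FPKM in N and at 4.71, 5.77 and 7.26 FPKM in T, and in KO at 2.61, 1.91 and 2.13 FPKM in N and at 4.21, 5.88 and 9.11 FPKM in T. The tissues did not overlap, and the difference was 1.11 in WT (SE 0.20, limma adjusted p = 0.0029) and 1.15 in KO (SE 0.20, 0.0030). The call in KO was lost without the libraries of 4 months (limma adjusted p = 0.0525) or of 5 months (0.0634), and with KO N and KO T alone (0.0593).

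Fzd10 (chr5:128600844-128604093, plus strand), a receptor that is low in most adult tissues, was at 0.132, 0.128 and 0.144 FPKM in WT N and at 0.779, 1.80 and 1.33 FPKM in WT T. In KO it was at 0.159, 0.139 and 0.0719 FPKM in N and at 0.493, 2.32 and 2.35 FPKM in T. It rose in WT by 1.0 (SE 0.26, limma adjusted p = 0.015) and by 1.19 in KO (SE 0.26, 0.0082), with no overlap of the tissues. Every N value was under 0.5 FPKM, so Fzd10 reached the tested level through T, which partly set these results. The WT call was lost without the WT N library of 4 months (limma adjusted p = 0.0605) or 5 months (0.0601), the WT T library of 4 months (0.0609), and all libraries of 4 months (0.123) or 5 months (0.112). The KO call was lost without the libraries of 4 months (0.0989) or 5 months (0.131), and with KO N and KO T alone (0.0717).

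Fzd8 and Fzd3 were the other Frizzled genes that fell. Fzd8, a receptor close in sequence to Fzd5, was at 1.98, 3.12 and 1.5 FPKM in WT N, 2.16, 2.46 and 2.01 FPKM in KO N, 0.662, 0.457 and 0.999 FPKM in WT T and 0.356, 0.731 and 0.713 FPKM in KO T. All T values lay below all N values, and it fell by 0.89 in WT (SE 0.21, adjusted p = 0.0099, limma), and in KO it fell by 1.01 (SE 0.21, 0.0066). Its call in WT was lost without the libraries of 3 months (limma adjusted p = 0.0687) or 4 months (0.0980) and with the WT groups alone (0.0595), and that in KO without the libraries of 3 months (0.0748).

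Fzd3, known for axon guidance and planar cell polarity, was at 0.826, 2.57 and 1.12 FPKM in WT N and at 0.398, 0.306 and 0.393 FPKM in WT T. In WT it fell by 0.81 (SE 0.28, limma adjusted p = 0.046), and this call held under only 9 of 23 other settings (adjusted p up to 0.229). Leaving out 1 library ended it for any WT N library (0.0583 to 0.174), the WT T library of 4 months (0.172) or 5 months (0.125), the KO N library of 5 months (0.0562) and the KO T library of 3 months (0.0514) or 5 months (0.0615). In KO it was at 0.282, 1.92 and 1.48 FPKM in N and 0.340, 0.306 and 0.542 FPKM in T, and the difference of -0.59 did not pass (limma adjusted p = 0.138). It passed in KO without the KO N library of 3 months (-0.88, 0.0370) and with age fitted within each tissue (-0.59, 0.0230).

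Fzd1 and Fzd7, receptors of a related pair of which Fzd7 serves intestinal stem cells, had means over 2 FPKM and did not pass in the main test. Fzd1 was at 5.36, 3.62 and 2.82 FPKM in WT N, 5.49, 3.45 and 2.38 FPKM in KO N, 4.12, 8.31 and 4.2 FPKM in WT T and 3.01, 6.62 and 5.21 FPKM in KO T (differences 0.38 and 0.32). Fzd7 was at 3.15, 2.44 and 1.71 FPKM in WT N, 3.92, 1.81 and 1.34 FPKM in KO N, 2.89, 4.62 and 3.53 FPKM in WT T and 2.80, 5.57 and 5.09 FPKM in KO T (differences 0.45 and 0.74, limma adjusted p = 0.297 and 0.107). Both were lower in T than in N at 3 months and higher at 4 and 5 months in each genotype. Fzd7 passed in KO without the KO N library of 3 months (1.13, adjusted p = 0.0153) or the KO T library of 3 months (1.10, 0.0271). Without all libraries of 3 months it passed in both genotypes (0.72 with 0.0292 in WT, and 1.30 with 0.0048 in KO), and Fzd1 passed in KO (0.83, 0.0382). Fzd7 also passed with age fitted within each tissue (0.45 with limma adjusted p = 0.0346 in WT, and 0.74 with 0.0055 in KO). With each library divided by its FPKM sum, Fzd7 passed in WT (1.29, 0.0162) and KO (1.43, 0.0131), and Fzd1 in WT (1.22, 0.0179). Fzd2, Fzd4 and Fzd9 ranged from 0.107 to 2.86 FPKM, with overlapping tissues and no call in either genotype.

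The Frizzled genes summed to 25.2 to 29.8 FPKM in N and 14.9 to 28.7 FPKM in T, which overlapped. As TPM the sums were 37.8 to 52.9 in N (median 47.2) and 39.9 to 87.3 in T (median 71.5). Fzd5 held 30.2% to 55.5% of this sum in N and 8.04% to 12.5% in T. Fzd6 held 6.52% to 10.1% in N and 22.3% to 31.7% in T, and Fzd10 0.278% to 0.615% and 3.31% to 8.93%. Fzd7 was at 5.18% to 15.2% of the sum in N and 14.6% to 21.4% in T, and Fzd1 at 9.20% to 21.2% and 17.4% to 32.1%, where the ranges overlapped. Thus no single Frizzled gene was most abundant in all T libraries, where Fzd6 and Fzd1 were the leading ones.

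**Figure D4:**
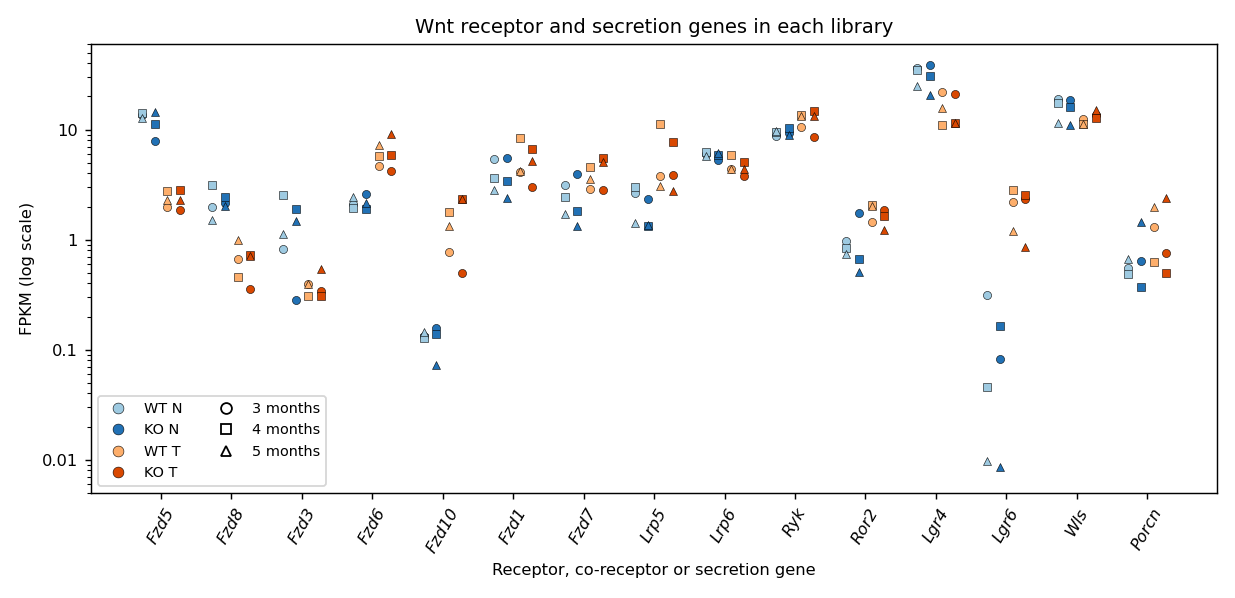
FPKM of receptor, co-receptor and secretion genes in each library (vertical axis, logarithmic), by genotype and tissue (color) and age (shape). Fzd5 in T, at 1.86 to 2.83 FPKM, lies below all N libraries, Lgr6 in T, at 0.860 to 2.85 FPKM, above all of them, and the Lgr4 points of N and T overlap.

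Of the co-receptors Lrp5 rose and Lrp6 did not pass. Lrp5 was at 2.68, 3.03 and 1.41 FPKM in WT N, 2.35, 1.32 and 1.36 FPKM in KO N, 3.82, 11.2 and 3.09 FPKM in WT T and 3.87, 7.68 and 2.78 FPKM in KO T. It was higher in T in all 6 pairs of the same genotype and age, most of all at 4 months. It rose in WT by 0.92 (SE 0.31, limma adjusted p = 0.047) and by 1.04 in KO (SE 0.31, 0.033), but these calls held under only 8 and 13 of 24 other settings. In WT, leaving out any WT N library (0.0785 to 0.139), the WT T library of 4 months (difference 0.56, 0.190) or 5 months (0.0808), the KO N library of 5 months (0.0530), any KO T library (0.0546 to 0.0639) or any age (0.0541 to 0.189) ended the call. In KO, this was so for the WT N library of 5 months (0.0503), that of KO N at 4 months (difference 0.62, 0.105), any KO T library (0.0586 to 0.131) and any age (0.0549 to 0.135).

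Lrp6 was at 6.02, 6.31 and 5.76 FPKM in WT N, 5.33, 5.88 and 6.17 FPKM in KO N, 4.38, 5.87 and 4.37 FPKM in WT T and 3.82, 5.06 and 4.39 FPKM in KO T. It was lower in T in all 6 pairs, but the differences of -0.27 in WT (SE 0.13, limma adjusted p = 0.142) and -0.33 in KO (SE 0.13, 0.089) did not pass, and divided by the library's FPKM sum (TPM) they turned to 0.53 (limma adjusted p = 0.0330) and 0.23 (0.318). In KO Lrp6 fell with voom (-0.45, limma adjusted p = 0.0412) and with age fitted within each tissue (-0.33, 0.0306).

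The alternative receptors gave no call in the main test. Ryk, a receptor with an inactive kinase domain, was at 8.79, 9.47 and 9.78 FPKM in WT N, 9.32, 10.4 and 8.87 FPKM in KO N, 10.6, 13.7 and 13.2 FPKM in WT T and 8.53, 14.8 and 13.4 FPKM in KO T. Its difference was 0.38 in WT (SE 0.16, limma adjusted p = 0.0996) and 0.30 in KO (SE 0.16, 0.193). Ryk passed in WT with age fitted within each tissue (0.38, 0.0313). It also passed under TPM in WT (1.25, 0.00066) and KO (0.94, 0.0040), where the median difference of all genes was 0.76 and 0.57. Ror2, the Wnt5a receptor, was higher in T in all 6 pairs, at 0.509 to 1.74 FPKM in N and 1.22 to 2.07 FPKM in T, with differences of 0.62 (limma adjusted p = 0.0503) and 0.43 (0.165). Without the KO N library of 3 months, which held the highest N value, Ror2 passed in both genotypes (0.62 with 0.0173, and 0.69 with 0.0254), and it passed in WT without the WT T library of 3 months (0.86, 0.0168) or all libraries of 3 months (0.78, 0.0275). Ror2 also passed under TPM in WT (1.45, limma adjusted p = 0.0023) and KO (1.06, 0.0139), and in WT with age fitted within each tissue (0.62, 0.0295). Ror1 was at 0.183 to 1.63 FPKM, with T below N at 3 and 4 months and above it at 5 months in both genotypes.

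Of the R-spondin receptors Lgr6 rose and Lgr4 fell in FPKM. Lgr4 (chr2:109917647-110014257, plus strand), which is expressed widely in the crypt, was at 36.6, 35.0 and 25.2 FPKM in WT N, 38.9, 30.7 and 20.4 FPKM in KO N, 22, 11 and 15.7 FPKM in WT T and 20.9, 11.5 and 11.6 FPKM in KO T. T was lower in all 6 pairs, while the 3-month T values exceeded the lowest N value. Lgr4 fell by 0.98 in WT (SE 0.22, adjusted p = 0.0076, limma), and in KO it fell by 0.99 (SE 0.22, 0.0087). The calls were lost under TPM (-0.13, limma adjusted p = 0.650, and -0.39, 0.209), where each library is divided by its FPKM sum, and without the age term (0.0544 and 0.0608). The call in KO was also lost with KO N and KO T alone (0.0524) and without the libraries of 3 months (0.0561) or 5 months (0.0570).

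Lgr6 (chr1:134983301-135105276, minus strand), best known as a marker of skin stem cells, was at 0.314, 0.0454 and 0.00975 FPKM in WT N, 0.0829, 0.164 and 0.00852 FPKM in KO N, 2.20, 2.85 and 1.2 FPKM in WT T and 2.35, 2.55 and 0.860 FPKM in KO T. All T libraries lay above all N libraries, where it had 1 to 35 reads against 158 to 500 reads in T. Lgr6 rose in WT by 1.43 (SE 0.20, limma adjusted p = 0.00089) and by 1.37 in KO (SE 0.20, 0.0013) and passed under all 23 other settings that tested it. Every N value was under 0.5 FPKM, so Lgr6 reached the tested level through T, which partly set these results. Lgr4 had the higher level of the pair in every T library.

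Wls and Porcn, the secretion genes, did not pass in the main test. Wls was at 19.0, 17.6 and 11.5 FPKM in WT N, 18.7, 16.1 and 11.1 FPKM in KO N, 12.5, 11.2 and 11.2 FPKM in WT T and 13.5, 12.8 and 15.2 FPKM in KO T (differences -0.40 and -0.11, limma adjusted p = 0.142 and 0.712). Porcn was higher in T in all 6 pairs, at 0.375 to 1.46 FPKM in N and 0.501 to 2.41 FPKM in T, with differences of 0.51 (adjusted p = 0.077) and 0.24 (0.419). It passed in WT without the WT N library of 4 months (0.69, 0.0419), under TPM (1.27, limma adjusted p = 0.0083) and with age fitted within each tissue (0.51, 0.0456). Wls passed in WT with age fitted within each tissue (-0.40, 0.0153).

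Over both genotypes, all 6 T libraries lay above all 6 N libraries for 5 of the 22 tested genes (Wnt6, Wnt10a, Lgr6, Fzd6 and Fzd10) and below for 2 (Fzd5 and Fzd8), where 12% and 13.3% of all genes tested did so. Wnt10a, Lgr6 and Fzd10 reached at most 0.399, 0.314 and 0.159 FPKM in N. They reached the tested level of 0.5 FPKM through T, so their place above N was partly set by that level. Under TPM, a scaling described next, 10 lay above (the same 5 with Fzd7, Ror2, Ryk, Lrp5 and Wnt5a) and 1 below (Fzd5), where 31.3% and 4.67% of all genes did, and Fzd8 overlapped. Scaling limits the direction of calls. The deposited FPKM sum to 507629 to 665306 per N library and to 320356 to 373026 per T library, and dividing by that sum (TPM) moved the median difference of all genes to 0.76 in WT and 0.57 in KO. Under TPM 14 of the 22 genes rose and 1 fell in WT, where 8061 of all 15526 genes rose and 1149 fell. KO had 10 of the 22 that rose and 2 that fell, where 6410 of all genes rose and 1181 fell. Of the calls among all genes, 87.5% and 84.4% were rises under TPM, against 45.0% and 46.6% before. Fzd5 fell under TPM too, by 1.52 and by 1.44, whereas Lgr4 no longer passed (-0.13, adjusted p = 0.650, and -0.39, adjusted p = 0.209), nor did Fzd3 (-0.63, 0.190) and Fzd8 (-0.54, 0.173) in WT. Lrp6 turned from -0.27 to 0.53 in WT (adjusted p = 0.033) and from -0.33 to 0.23 in KO, and Wls from -0.40 to 0.45 and from -0.11 to 0.51. Each of these values still lay below the median of all genes on the same scale. The 7 genes that rose in both genotypes rose under TPM as well. TPM raised T minus N by a median of 0.83 in WT and 0.61 in KO over all genes, so it was no check of these rises.

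Cell type markers, taken as lists, also differed between T and N, and in bulk tissue fewer cells of a type and less RNA per cell cannot be told apart. Of 7 epithelial markers 5 fell in WT and 3 in KO, with sums of 5598 to 13060 FPKM in WT N, 4996 to 8207 FPKM in KO N, 2338 to 4493 FPKM in WT T and 2296 to 4804.5 FPKM in KO T. Of 5 tested markers of subepithelial and crypt-base stroma (8 listed), 3 rose in each genotype, with sums of 7.69 to 13.6, 5.18 to 32.9, 19.9 to 52.7 and 24.9 to 54.6 FPKM in the same order of groups. Of 7 endothelial markers 3 rose in WT and 2 in KO (sums 12.2 to 16.5, 8.60 to 29.1, 45.7 to 62.7 and 40.1 to 67.6 FPKM). Prox1 made up 24.6 to 30.3 FPKM of this in T and 0.160 to 4.40 FPKM in N, and without it the sums were 14.4 to 39.7 FPKM in T and 7.47 to 27.6 FPKM in N, which overlapped. Of 6 macrophage markers 3 and 2 rose (68.3 to 119.9, 76.3 to 191.2, 134.3 to 309.3 and 131.6 to 303.8 FPKM). Of 5 Paneth and deep crypt secretory markers 3 rose in each (190.5 to 4947, 19.2 to 8728, 1126 to 1483 and 925.6 to 2395 FPKM), and of 8 fibroblast markers 1 rose in each (52.6 to 99.8, 29.5 to 204.6, 60.3 to 136.6 and 77.2 to 152.5 FPKM). Of 9 smooth muscle markers 0 passed in WT and 1 fell in KO (30.8 to 117.6, 39.4 to 629.6, 49.3 to 306.5 and 24.9 to 226.9 FPKM). Of 5 tested lymphocyte markers 0 passed in WT and 2 fell in KO, of 2 tested neuronal and glial markers 0 passed, and the 1 mesothelial marker tested, Msln, rose in both. No list had a marker at 3 reads or fewer in every library, and the part of these differences in the ligand and receptor results was not tested. Without the KO N library of 3 months, 13 of the 22 genes passed in WT and 14 in KO. The share of all genes under this setting is not given here, so these counts are not particular to the 22 genes. The epithelial markers' median difference was -1.14 in WT and -0.77 in KO, and -0.24 and -0.13 under TPM.

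Other genes of the pathway were taken as lists. Of 17 secreted inhibitors and their partners 9 could be tested, of which 5 rose and 1 fell in each genotype, and Dkk1, Dkk4 and Sost had 3 reads or fewer in every library. Dkk2, which blocks Lrp5 and Lrp6, rose by 3.35 in WT and 3.91 in KO, Notum, which removes the lipid from Wnt proteins, by 4.21 and 4.66, and Wif1, which binds Wnt proteins, by 4.18 and 4.96. The gene that fell was Kremen2 (-0.92 and -0.97), a membrane protein that Dkk proteins bind, named here after its value was seen. Of 6 genes of receptor turnover and feedback, all 5 tested rose in both genotypes, and the ligases Rnf43 (2.36 and 2.47) and Znrf3 (1.73 and 1.84) and the scaffold Axin2 (3.03 and 3.19) had the smallest p-values in WT. Among 7 tested of 11 membrane partners, 3 rose in WT and 4 in KO and none fell, led by the glypican Gpc1 (2.52 and 2.69), the pseudokinase Ptk7 (2.26 and 2.36) and the syndecan Sdc1 (0.98 and 1.10). Of 25 tested among 27 intracellular genes, WT had 8 that rose and 2 that fell, and KO 8 and 1, with Csnk1e, a casein kinase, at 1.85 and 1.86 and the transcription factors Tcf7 at 1.76 and 1.92 and Lef1 at 1.13 and 1.18. Those that fell, named after their values were seen, were the transcription factor Tcf7l2 (-0.98 in both genotypes) and, in WT, the corepressor Tle4 (-0.59, and 0.20 under TPM). In the planar cell polarity list, 9 of 14 were tested, of which WT had 2 that rose and 1 that fell, and KO 3 and 0: Vangl2 rose by 1.74 and 1.78, Celsr2 by 0.60 and 0.53, and Daam1 fell by 0.60 in WT (0.19 under TPM; difference in KO -0.29, adjusted p = 0.280).

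KO was compared with WT to ask whether loss of Cul4b in the epithelium altered these genes. None of the 22 tested genes passed in T, in N or in the genotype by tissue interaction (limma), and none had an unadjusted p under 0.05 in these 3 comparisons. Of all 15526 genes tested, only 128, 228 and 183 had such a p, so its absence is not particular to the 22 genes. These counts are lower than a threshold of 0.05 would give with no difference at all. The main fit has no term for tissue by age, which passed for 18.9% of all genes between 3 and 4 months. Changes with age in only 1 tissue therefore count as spread, so the p-values and intervals between genotypes can be too large. Over all genes, 0.00644% passed in T and 0.00644% in N, which is Cul4b alone, and 0% in the interaction. The Cul4b call was lost in T without any single library of T, and without WT N of 5 months or KO N of 4 months, and in N without the KO N library of 4 months, when no gene passed. In T the differences of the 22 genes ran from -0.19 to 0.43, with 95% intervals between -0.90 and 1.32. In N they ran from -0.32 to 0.24, with intervals between -1.08 and 0.91, and in the interaction from -0.28 to 0.44, with intervals between -1.13 and 1.70. Under the other settings 0 members passed as well, and at most 1 had an unadjusted p under 0.05 in any of them, voom and the lower limit included.

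The widest differences in T were those of the 3 leading ligands. Wnt5a was higher in KO T than in WT T at all 3 ages, with a difference of 0.43 (95% interval -0.45 to 1.32), an interval that held 0 in this fit. Wnt6 and Wnt10a were higher in KO T at 4 and 5 months and lower at 3 months, with differences of 0.25 (-0.64 to 1.15) and 0.24 (-0.53 to 1.0). Lrp5 differed by -0.19 in T (-0.90 to 0.51) and by -0.32 in N (-1.02 to 0.39). Fzd5 was lower in KO N at 3 and 4 months and higher at 5 months, with a difference of -0.30 (-0.70 to 0.10, unadjusted p = 0.121), the smallest p of the 22 genes in N. These intervals hold differences of up to 1 or more on the log2 scale for some ligands, so the data do not show that the genotypes are alike.

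Age entered as the replicate, and the size of the T minus N difference varied with it. A test of tissue by age, added after the data had been seen, compared T minus N between ages over both genotypes. Between 3 and 4 months 7 of the 22 genes passed, where 18.9% of all genes did. The difference grew by 1.71 for Wnt6 (SE 0.32, limma adjusted p = 0.020), by 1.32 for Wnt10a (SE 0.29, 0.027), by 1.28 for Lrp5 (SE 0.30, 0.032), by 1.40 for Fzd1 (SE 0.24, 0.017) and by 1.2 for Fzd7 (SE 0.25, 0.024), and it fell by 1.14 for Fzd3 (SE 0.28, 0.035) and by 1.01 for Wnt5a (SE 0.28, 0.049). In single pairs, T minus N of Wnt6 was 1.83, 3.63 and 3.25 in WT and 2.33, 3.93 and 3.77 in KO at 3, 4 and 5 months, and that of Wnt10a 1.67, 3.15 and 2.85 in WT and 2.04, 3.20 and 3.55 in KO. T minus N of Wnt5a was 1.58, -0.03 and 2.05 in WT and 1.34, 0.92 and 2.57 in KO, so 4 months was lowest in both.

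Between 4 and 5 months 1 gene passed, where 8.51% of all genes did: T minus N of Wnt5a grew by 1.86 (SE 0.28, limma adjusted p = 0.020). Between 3 and 5 months 0 of the 22 passed, as did 0% of all genes. The marker sums also varied with age: smooth muscle was at 24.9 to 49.3 FPKM in T at 3 months, 51.6 to 57.1 at 4 months and 226.9 to 306.5 at 5 months, and at 117.6 to 629.6, 30.8 to 39.4 and 55.0 to 78.8 FPKM in N. Epithelial markers were at 2296 to 2338 FPKM in T at 3 months and 4493 to 4804.5 FPKM at 4 months, and at 4996 to 5912 and 5598 to 6694 FPKM in N. Paneth and deep crypt secretory markers were at 4947 to 8728 FPKM in N at 3 months and 190.5 to 282.5 FPKM at 4 months, and at 1203 to 2256 and 925.6 to 1126 FPKM in T. The part of these markers in the differences between ages was not tested. Of the 7 calls between 3 and 4 months, 0 held without the KO N library of 4 months, the WT T library of 3 or 4 months, or the KO T library of 3 or 4 months, and 1 held without the KO N library of 3 months. Without the WT N library of 4 months 3 held, and without the WT T or the KO T library of 5 months 4 held. The call of Wnt5a was lost without any 1 of the 12 libraries. Between 4 and 5 months it was lost without the WT N library of 4 months (adjusted p = 0.0578) or 5 months (0.0525), the WT T library of 4 months (0.114) or 5 months (0.0606), and the KO T library of 4 months (0.0884) or 5 months (0.0879).

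**Figure D5:**
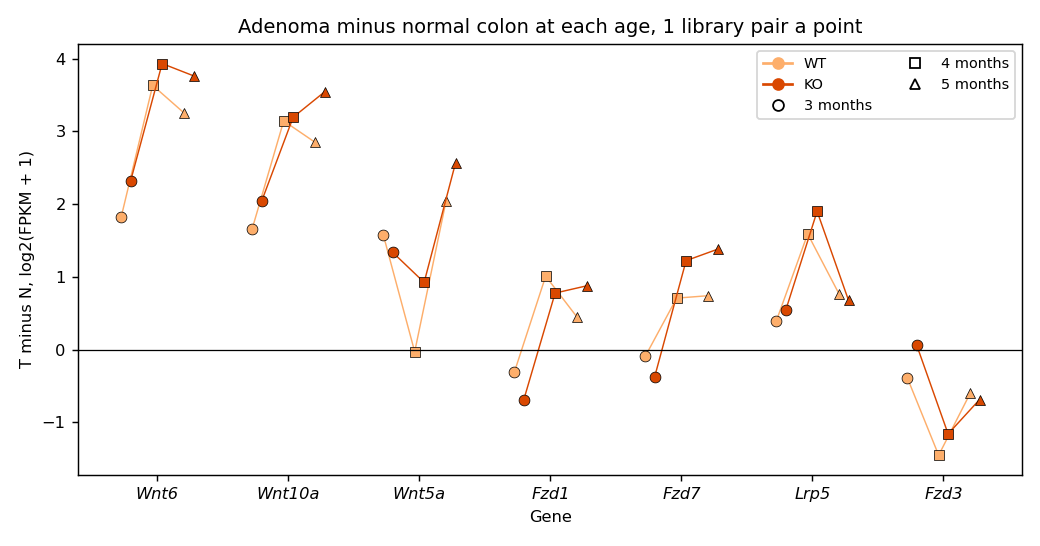
T minus N in log2(FPKM + 1) at 3, 4 and 5 months (shape) in WT and KO (color) for the 7 genes that passed between 3 and 4 months, with 1 pair of libraries per point and lines joining the ages of a genotype. Wnt6 is at 1.83 and 2.33 at 3 months and 3.63 and 3.93 at 4 months, while Wnt5a is lowest at 4 months, at -0.03 and 0.92.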

How the data were processed

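Gene-level FPKM values of 12 libraries of total RNA from mouse colon were used as the authors deposited them, in one table for 3 and 4 months and another for 5 months, together with the gene length in bases that the authors deposited in each table. The submitters' processing notes name StringTie, featureCounts 1.5.0-p3, DESeq2 and the mm10 build; no source used here gives the aligner, annotation release or strand setting. FPKM times gene length came out as whole multiples of 1 read in 100% of values (tolerance 0.01 reads), so reads per gene could be recovered; counting error alone sets the floor of 3 reads.

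Groups came from the titles. The main test was limma 3.58.1 in R 4.3.3 on log2(FPKM + 1), for genes whose mean reached 0.5 FPKM, with group and age as terms, all 12 libraries sharing 1 estimate of the spread, and Benjamini-Hochberg adjustment over all genes tested in each of 5 comparisons at 0.05. Age served as the replicate block because each group has 1 library per age, and it also marks which table a library came from; no 2 libraries were identical. Fits without age, with other pseudocounts and limits, with TPM, with limma's voom on the recovered reads, and without each library or age were alternatives, and the tissue by age test, the overlap of libraries under TPM and the marker sums without Prox1 or Ang4 were added after seeing the data. The fit was tested on simulated data with known changes.

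Genes were described in full where they passed a test or had a mean of at least 2 FPKM, and otherwise by ranges; from each pathway list the 3 genes with the smallest p in T minus N in WT were named. The genes, lists and markers were chosen with earlier results of these data known. Annotation is GENCODE M21, and promoter sequences are from RefSeq.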

Additional observations from a re-analysis of the deposited data

Results flagged for a closer look

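The difference between adenoma and adjacent normal colon itself differed between ages for 7 genes from 3 to 4 months and for 1 from 4 to 5 months, by a limma test of the difference. Of all genes tested, 18.9% and 8.51% did so. From 3 to 4 months, T minus N changed on the log2 scale by 1.40 for Fzd1, -1.14 for Fzd3, 1.2 for Fzd7, 1.28 for Lrp5, 1.32 for Wnt10a, -1.01 for Wnt5a and 1.71 for Wnt6. From 4 to 5 months, T minus N of Wnt5a changed by 1.86. Each call was tried under 14 other settings. From 3 to 4 months the calls held under 0 (Wnt5a), 3 (Fzd3), 4 (Wnt10a), 5 (Lrp5), 7 (Fzd7), 8 (Fzd1) and 8 (Wnt6) of them. That of Wnt5a from 4 to 5 months held under 8. Each age has 1 library per genotype and tissue, so age and library cannot be told apart beyond the pair of genotypes.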

How the results depend on the processing

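Of 21 calls of single genes between T and N, 9 held under every setting that tested the gene (Fzd5, Lgr6, Wnt6 and Wnt10a in both genotypes and Fzd6 in WT), 12 were lost under at least 1, and 0 reversed. Wnt10a, Lgr6 and Fzd10 reached the limit of 0.5 FPKM through T, so their calls were partly set by that limit. The 11 calls in WT became 7 with a limit of 2 FPKM, where Fzd3, Fzd8, Fzd10 and Lgr6 were not tested and no tested call was lost. They became 7 without the replicate block of age, 17 with age fitted within each tissue and 7 with the WT groups alone. With libraries or ages left out they ranged from 7 to 13. The 10 calls in KO became 6 with the KO groups alone, 8 without the replicate block and 15 with a limit of 0.1 FPKM and a pseudocount of 0.1 together, and ranged from 5 to 14 with libraries or ages left out. Without the block Lgr4 did not pass in WT (limma adjusted p = 0.0544) or KO (0.0608), nor did Wnt5a (0.0546), Fzd3 (0.0832) and Lrp5 (0.143) in WT or Lrp5 in KO (0.114). Between 3 and 4 months the 7 calls became 2 under TPM and 4 with a pseudocount of 0.1, and ranged from 0 to 6 with 1 library left out. Between 3 and 5 months they ranged from 0 to 2, with 2 without the WT N library of 3 months, and between 4 and 5 months from 0 to 1. KO against WT and the interaction gave 0 calls under every setting run. With voom on the recovered reads 10 genes passed in WT and 11 in KO. Depth limits the genes of few reads: for Rspo2, Rspo4, Wnt1 and others with a mean under 0.1 FPKM, differences could not be assessed.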

Other observations

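The genes on either side of Wnt6 and Wnt10a on chromosome 1, looked at after the values of the pair were seen, gave the following levels, none of which was tested here. Before the pair, Cyp27a1, a sterol hydroxylase, was at 4.47 to 9.14 FPKM in N and 10.3 to 51.3 FPKM in T, Ttll4, a glutamylase, at 1.91 to 2.55 and 3.17 to 5.66 FPKM, and Prkag3 at 0 to 0.0476 and 0.0570 to 0.375 FPKM, with all T libraries above all N libraries for each. After the pair, Cryba2 was at 0.216 to 0.685 FPKM in N and 0.0586 to 0.250 FPKM in T, Fev, a serotonergic transcription factor, at 0.0319 to 0.610 and 0 to 0.0835 FPKM, and Cdk5r2 at 0.184 FPKM or less throughout.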
